A study of Mus musculus with 12 samples.

Results

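Transcript levels of 10 genes of the follicular helper T cell and IL-21 axis were followed in 12 mouse spleen libraries: Il21, Il21r, Icos, Icosl, Cxcr5, Sh2d1a, Maf, Il4, Il6 and Cd40lg. The genes were taken by symbol from the 53715 gene rows of the count table, by a rule that uses no measured value, although the list was drawn up with earlier results of these data known, and all 10 were found and passed the filter on low counts. All 12 libraries came from whole spleen of BXSB.Cg-Cd8atm1Mak Il15tm1Imx Yaa (Yaa DKO) mice, a lupus-prone strain that carries the Yaa translocation, which duplicates Tlr7, and targeted alleles of Cd8a and Il15. Every group therefore shares these alleles, and no group lacks Yaa. Of the 3 groups, each of 4 libraries, the first was untreated at 6 weeks (replicates 1 to 4) and the second untreated at 10 weeks (replicates 5 to 8). The last was also 10 weeks old and had received 2-deoxyglucose (2DG), a glucose analogue that inhibits glycolysis, at 6 g/L in drinking water freely available to the mice (replicates 9 to 12). The series title places the study in long-term inhibition of glycolysis and B cells of autoimmune-prone mice. The labels name separate samples but not separate animals, so p-values weigh group differences against a spread that could be technical in part.

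Follicular helper T cells (Tfh) are CD4 T cells that enter B cell follicles, drawn there by the chemokine receptor CXCR5, and help B cells in germinal centres to switch isotype, mature their antibodies and become plasma cells. They do so with contact signals, such as ICOS paired with its ligand on the B cell and CD40 ligand paired with CD40, and with the secreted cytokines IL-21 and IL-4. IL-21 acts through a receptor made of IL-21R and the common gamma chain, which signals through JAK1, JAK3 and STAT3, and disease in BXSB Yaa mice is known to depend on that receptor.

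Total counts per library ran from 15596040 to 26079979. Levels are CPM, which are counts scaled by library size and TMM factors, given by replicate number and then as mean ± SD of n = 4. Fold changes are log2 values fitted by edgeR with their standard errors (SE), and adjusted p-values are edgeR's, corrected over all 18542 genes tested, unless another tool is named. The untreated 10-week libraries differed most among themselves (biological coefficient of variation 0.241) and the 6-week and 2DG libraries less (0.127 and 0.114). Replicate 8 of that group had a median rank correlation of 0.992 with the 6-week libraries and 0.983 with its own group, and replicate 6 had the lowest B cell signal. Results that change without these libraries are given with and without them. Replicate 8 was singled out for its likeness to the 6-week group, so calls made without it are not separate support. Genes called over the whole table went from 1 to 1563 with age without it, and from 1376 to 2209 with 2DG at 10 weeks. The targeted genes were both counted, Cd8a at 582 to 1414 counts per library and Il15 at 82 to 169, and counts over a whole gene do not tell targeted from intact alleles.

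Il21 and Icos were the members called: both were lower in 2DG-treated than in untreated spleens at 10 weeks, Il21 by 3.87-fold in mean CPM and Icos by 2.26-fold. Of the 10 members, 2 fell, 0 rose and 8 did not pass the test in that comparison. Over all genes tested 7.42% were called, 5.26% as lower and 2.16% as higher. In the same comparison 6 of 10 members had an unadjusted p under 0.05, against 24.5% of all genes. With age, from 6 to 10 weeks in untreated spleens, 0 of 10 members passed in edgeR, where 0.00539% of all genes did, a single gene (Cd8a). At an unadjusted p under 0.05 there were 4 of 10 members with age, against 17.1% of all genes, and DESeq2 called 2, Icos and Il21, both higher, where it called 3.76% of all genes and 2.59% as higher. In 2DG-treated spleens against untreated 6-week spleens 0 of 10 members passed in edgeR (0.129% of all genes), 0 had an unadjusted p under 0.05 (16.9% of all genes) and DESeq2 called 0 (5.64% of all genes). Libraries of the compared groups did not overlap for 2 members with age, both higher (Icos and Sh2d1a, against 3.64% of all genes higher and 3.33% lower), and for 2 members with 2DG at 10 weeks, both lower (Il21 and Icos, against 7.91% lower and 4.48% higher). In the comparison with 6 weeks 0 of 10 members were free of overlap (7.98% of all genes higher and 7.69% lower). The comparisons share libraries: each group of 4 libraries serves in 2 of the 3 comparisons. Opposite signs with age and with 2DG are therefore not independent of each other.

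**Figure D1:**
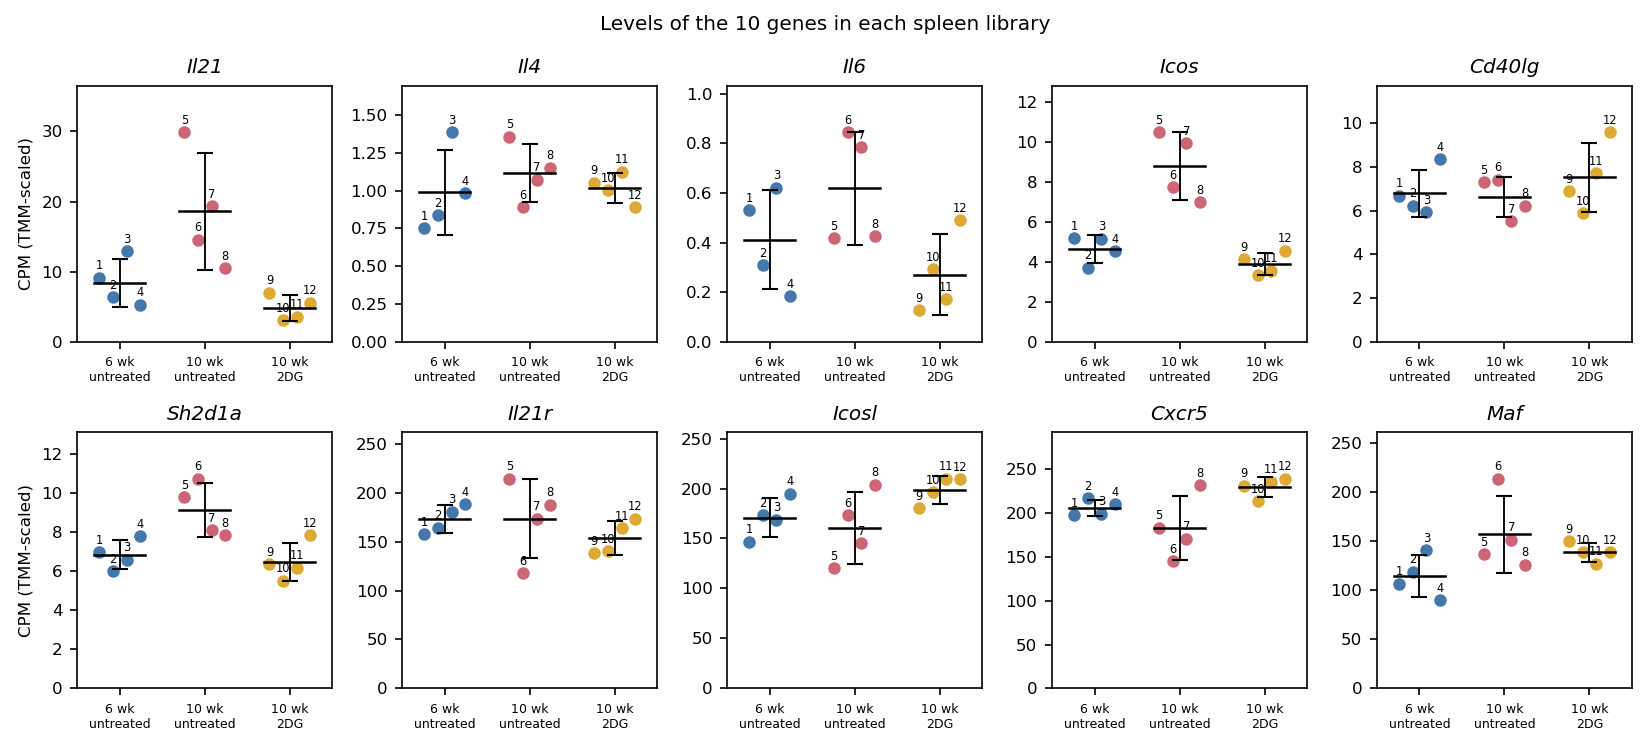
Level of each of the 10 genes in every library (vertical axis, CPM, one panel and scale per gene) by group (horizontal axis), with the mean and SD of 4 libraries beside the points. The 4 Il21 points of the 2DG group, 3.06 to 6.99 CPM, all lie under those of the untreated 10-week group, 10.5 to 29.9 CPM, and Icos has the same order of groups.

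Il21 (ENSMUSG00000027718.8, chromosome 3, 37222759 to 37232636, minus strand, GRCm38) encodes the cytokine itself. Its level was 9.17, 6.32, 12.9 and 5.28 CPM in untreated spleens at 6 weeks (8.42 ± 3.42), and counts ran from 73 to 573 per library over all groups. At 10 weeks it was 29.9, 14.6, 19.3 and 10.5 CPM without treatment (18.6 ± 8.36). With 2DG it was 6.99, 3.06, 3.59 and 5.58 CPM (4.80 ± 1.82). All 4 treated libraries lay under all 4 untreated libraries of the same age, whereas the untreated groups of the 2 ages overlapped, since replicate 8 (10.5 CPM) lay under replicate 3 (12.9 CPM). Il21 fell by 1.95 on the log2 scale with 2DG at 10 weeks (SE 0.39, edgeR adjusted p = 0.014). The call was lost without 2DG replicate 10 (adjusted p = 0.0508) or 11 (0.0550), the libraries with the lowest Il21, and over all alternatives the adjusted p ran from 2.86e-06 with DESeq2 to 0.116 when tested against a fold of 1.5. With age the log2 difference was 1.13 (SE 0.38, adjusted p = 0.175), DESeq2 gave an adjusted p of 0.0377, and leaving out replicates 6 and 8 gave 0.0390 in edgeR, in a fit that called 12.0% of all genes. Against the 6-week spleens the 2DG difference was -0.81 (SE 0.39, adjusted p = 0.32).

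The start of Il21 is shown with those of Il4 and Il6, the other cytokine genes among the members, since GGAAA, the core of binding sites for the calcium-dependent NFAT factors, lies at all of these starts. Each sequence runs 5′ to 3′ on the gene's own strand from 250 bases before to 50 bases after the start, from RefSeq (GRCm38.p6), and capitals mark GGAAA on either strand, read as TTTCC where it lies on the other strand.
Il21 at chr3:37232587-37232886, minus strand: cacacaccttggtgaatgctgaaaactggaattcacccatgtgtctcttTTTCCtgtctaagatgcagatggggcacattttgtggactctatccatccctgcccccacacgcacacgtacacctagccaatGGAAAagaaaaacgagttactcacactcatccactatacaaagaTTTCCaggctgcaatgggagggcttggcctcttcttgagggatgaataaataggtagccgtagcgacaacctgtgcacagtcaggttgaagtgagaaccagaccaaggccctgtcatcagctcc
Il4 at chr11:53618616-53618915, minus strand: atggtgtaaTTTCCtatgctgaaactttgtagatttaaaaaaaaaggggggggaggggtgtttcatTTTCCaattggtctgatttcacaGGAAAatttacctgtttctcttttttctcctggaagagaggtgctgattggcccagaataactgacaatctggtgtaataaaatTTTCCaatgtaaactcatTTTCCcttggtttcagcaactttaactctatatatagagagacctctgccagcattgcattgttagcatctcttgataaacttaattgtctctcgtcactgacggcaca
Il6 at chr5:30012864-30013163, plus strand: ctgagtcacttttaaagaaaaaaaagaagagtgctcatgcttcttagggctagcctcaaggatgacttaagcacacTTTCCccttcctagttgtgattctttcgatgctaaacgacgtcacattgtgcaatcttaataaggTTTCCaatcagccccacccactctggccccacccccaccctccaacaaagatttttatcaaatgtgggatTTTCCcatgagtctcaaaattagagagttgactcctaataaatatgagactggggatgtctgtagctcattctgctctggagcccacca
Il21 held 3 copies, Il4 held 5 and Il6 held 3. Among 32851 windows of the same length 61.3% held at least 1 copy, with a median of 1, and 9.42% held 3 or more. A second Il4 window, at an internal start, held 1 copy, and those of Il21r and Icosl held 0, so that 5 of 10 members had a window and 6 windows were searched. TGANTCA, the AP-1 consensus, was found 1 time in the Il6 window and in 7.81% of all windows. TTCNNNGAA, the consensus of STAT factors, was found 1 time in the second Il4 window and in 8.3% of all windows. Both of these motifs read the same on either strand, and the TTCNNNGAA match shares letters with the GGAAA copy of its window. A match describes these letters and shows no binding.

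Il4 (ENSMUSG00000000869.12, chromosome 11, 53602982 to 53618669, minus strand), the other helper cytokine of Tfh cells and one also made by basophils and mast cells, was near the lower end of detection. Its level was 0.753, 0.840, 1.39 and 0.982 CPM at 6 weeks, 1.36, 0.892, 1.07 and 1.15 CPM in untreated spleens at 10 weeks, and 1.05, 1.00, 1.13 and 0.893 CPM with 2DG, from 16 to 29 counts per library. The 3 groups overlapped. Log2 differences were 0.17 with age and -0.13 with 2DG (SE 0.22 each, adjusted p = 0.733 and 0.774). So where Il21 in the untreated 10-week spleens was 3.87 times that of the treated ones, Il4 was 1.10 times. The basophil and mast cell list had 0 of 8 genes past the threshold in each comparison and a summed level of 78.3 to 93.0, 55.5 to 131 and 69.7 to 101 CPM in the 3 groups; its part in the Il4 level was not tested.

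Il6 (ENSMUSG00000025746.11, chromosome 5, 30013114 to 30019981, plus strand) encodes a cytokine of myeloid, stromal and B cells that helps to start Tfh differentiation. It had 3 to 19 counts per library, the fewest of the members. Its level was 0.532, 0.309, 0.622 and 0.184 CPM at 6 weeks, 0.417, 0.845, 0.784 and 0.426 CPM in untreated spleens at 10 weeks, and 0.126, 0.293, 0.173 and 0.491 CPM with 2DG. Replicate 12 (0.491 CPM) lay above 2 of the untreated libraries of its age, so the groups overlapped. The log2 difference was -1.19 with 2DG (SE 0.45, adjusted p = 0.122) and 0.56 with age (SE 0.43, adjusted p = 0.539).

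Icos (ENSMUSG00000026009.14, chromosome 1, 60977927 to 61000320, plus strand) encodes the costimulatory receptor that Tfh cells need to form and persist. Its level was 5.18, 3.71, 5.17 and 4.54 CPM at 6 weeks (4.65 ± 0.693). At 10 weeks it was 10.5, 7.75, 9.94 and 6.99 CPM without treatment (8.79 ± 1.69) and 4.13, 3.35, 3.55 and 4.55 CPM with 2DG (3.89 ± 0.548). Every untreated 10-week library lay above every library of both other groups. Icos fell by 1.17 on the log2 scale with 2DG at 10 weeks (SE 0.17, edgeR adjusted p = 0.0021), and it stayed under the threshold in each of the 12 fits that left out a library. Fits without a 6-week library, which is not in this comparison, kept the log2 difference at -1.17 and so bear on spread alone. Against a fold of 1.5 the adjusted p of Icos was 0.0607. With age the log2 difference was 0.92 (SE 0.16, adjusted p = 0.0815), and 4 alternatives gave a call: DESeq2 (0.000143), no filter on low counts (0.0234), the fit without replicate 8 (0.00584) and that without replicates 6 and 8 (0.00226). The fit without replicate 8 called 8.33% of all genes, and of the members it called Icos as higher and Cxcr5 as lower with age (adjusted p = 0.0406). In 2DG-treated against 6-week spleens the difference was -0.26 (SE 0.17, adjusted p = 0.486).

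Sh2d1a (ENSMUSG00000005696.11, chromosome X, 42502453 to 42529330, plus strand) encodes SAP, the adaptor of the SLAM receptors that lets T cells hold on to B cells. Its level was 7.00, 6.01, 6.60 and 7.79 CPM at 6 weeks (6.85 ± 0.748). At 10 weeks it was 9.81, 10.8, 8.13 and 7.84 CPM without treatment (9.13 ± 1.39) and 6.36, 5.52, 6.19 and 7.85 CPM with 2DG (6.48 ± 0.983). The untreated 10-week libraries lay above all 6-week libraries, by a margin of 7.84 against 7.79 CPM, and the 2DG group overlapped them through replicate 12 alone (7.85 against 7.84 CPM). The difference with 2DG was -0.49 (SE 0.14), with an adjusted p of 0.0509 in edgeR, just over the threshold, and 0.0143 in DESeq2, which called 11.4% of all genes. Its age difference was 0.42 (SE 0.14, adjusted p = 0.175). Exons of Sh2d1a share 1465 bases, 26.6% of their length, with Tenm1 on the other strand, but Tenm1 had at most 3 counts in a library.

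Cd40lg (ENSMUSG00000031132.1, chromosome X, 57212143 to 57224042, plus strand) encodes the ligand that triggers CD40 on B cells. Its level was 6.69, 6.23, 5.93 and 8.35 CPM at 6 weeks, 7.30, 7.42, 5.53 and 6.22 CPM in untreated spleens at 10 weeks, and 6.90, 5.90, 7.71 and 9.59 CPM with 2DG. The 3 groups overlapped, and means of 6.80 ± 1.08, 6.62 ± 0.905 and 7.53 ± 1.56 did not follow the order of Il21 and Icos. Log2 differences were -0.04 with age (adjusted p = 0.934) and 0.19 with 2DG (adjusted p = 0.53).

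**Figure D2:**
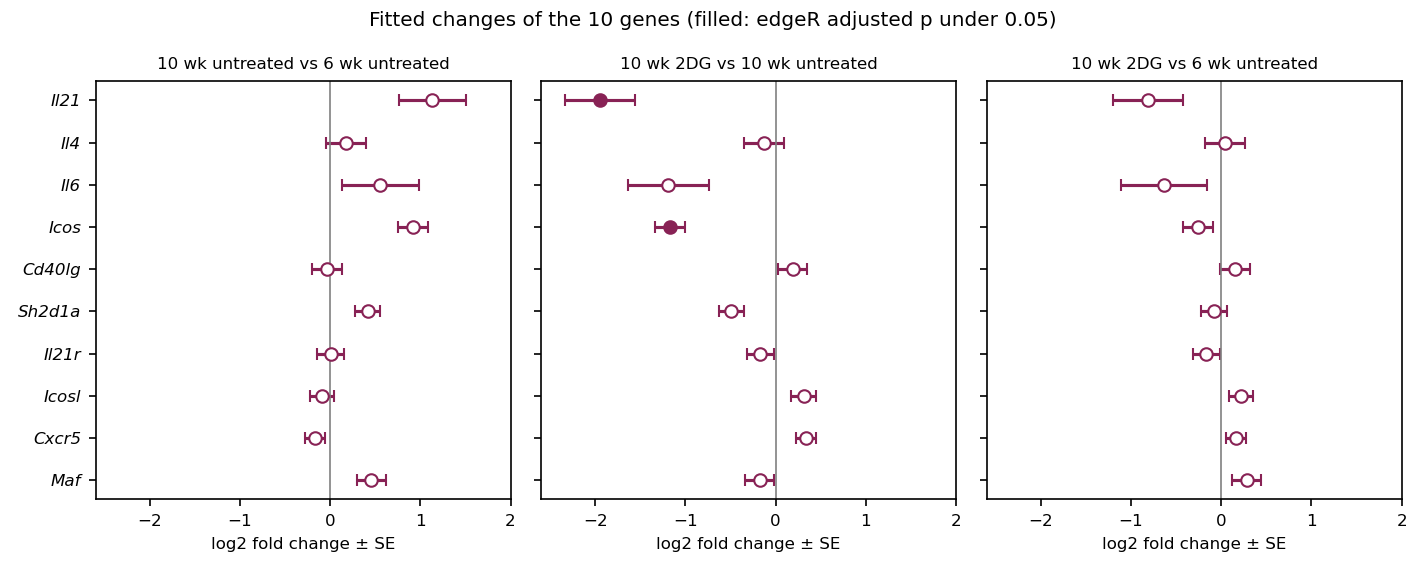
Fitted log2 fold change of each member (horizontal axis) with its standard error in the 3 comparisons, with filled points for an edgeR adjusted p under 0.05. Il21 at -1.95 and Icos at -1.17 for 2DG at 10 weeks are the 2 filled points.

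The remaining members act on the receiving side or are expressed by B cells and myeloid cells as well as T cells. Il21r (ENSMUSG00000030745.9, chromosome 7, 125603429 to 125633570, plus strand), the receptor for IL-21, had 158, 164, 181 and 189 CPM at 6 weeks (173 ± 14.2), 214, 118, 173 and 188 CPM in untreated spleens at 10 weeks (173 ± 40.7) and 138, 141, 164 and 173 CPM with 2DG (154 ± 17.2). The groups overlapped, and the 10-week means with and without 2DG stood 1.13-fold apart. Its log2 differences were 0.01 with age and -0.17 with 2DG (SE 0.15 each, adjusted p = 0.991 and 0.524). Without replicate 6 the 2DG difference of Il21r was -0.32 (adjusted p = 0.0581), and without replicates 6 and 8 it was -0.34 (0.0600). Ligand and receptor transcripts therefore differed in size of change: -1.95 for Il21 and -0.17 for Il21r. The difference between these genes was not tested.

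Icosl (ENSMUSG00000000732.9, chromosome 10, 78069302 to 78083913, plus strand) encodes the ligand of ICOS on B cells and other antigen-presenting cells. Its level was 147, 173, 169 and 195 CPM at 6 weeks, 120.2, 173, 145 and 204 CPM in untreated spleens at 10 weeks (161 ± 36.1) and 180.2, 196, 209.9 and 209.6 CPM with 2DG (199 ± 14). Cxcr5 (ENSMUSG00000047880.15, chromosome 9, 44511787 to 44561877, minus strand), carried by nearly all mature B cells as well as by Tfh cells, had 198, 217, 199 and 210.2 CPM at 6 weeks (206 ± 9.24), 184, 145, 171 and 232 CPM without treatment at 10 weeks (183 ± 36.6) and 232, 214, 236 and 239.5 CPM with 2DG (230.3 ± 11.4). Both genes were numerically higher with 2DG than in untreated spleens of the same age, while Icos was lower. Neither passed: Icosl differed by 0.31 (SE 0.14, adjusted p = 0.191) and Cxcr5 by 0.33 (SE 0.11, adjusted p = 0.086), and in both the groups overlapped through replicate 8. Without that library both were called as higher (adjusted p = 0.0338 and 0.00367), and 5 of 10 members were called, where 11.8% of all genes were. Dropping the only library that overlaps sets the groups apart by construction, so these calls add no separate support. Without replicates 6 and 8 there were 4 (16.7% of all genes). Cxcr5 shares 110 bases, 3.30% of its exons, with Bcl9l on the other strand, and strand was not marked, so reads there cannot be assigned.

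Maf (ENSMUSG00000055435.6, chromosome 8, 115682942 to 115707794, minus strand) encodes c-MAF, a transcription factor that drives Il21 and Il4 in helper T cells and is also high in splenic macrophages. Its level was 107, 119, 141 and 90.3 CPM at 6 weeks (114 ± 21.4), 137, 214, 152 and 126 CPM in untreated spleens at 10 weeks (157 ± 39.4), and 150.4, 139, 127 and 139 CPM with 2DG (139 ± 9.45). The treated libraries lay inside the untreated range of their age, and the log2 difference was -0.18 (SE 0.16, adjusted p = 0.553). With age it was 0.46 (SE 0.16, adjusted p = 0.192). The monocyte and macrophage list summed to 3267 to 3705 CPM at 6 weeks, 2784 to 4442 CPM in untreated 10-week spleens and 3375 to 3612 CPM with 2DG. In this list 3 of 10 genes were called lower with 2DG (Fcgr1, C1qa and Ly6c2), where 5.26% of all genes were. Fcgr1 lost its call in 7 of the 12 fits that left out a library, and C1qa and Ly6c2 in 9 each. The part of this list in the Maf level was not tested.

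Per kilobase of exon, where levels of different genes can be compared, Cxcr5 was highest in all 3 groups and Il6 lowest. In untreated 10-week spleens the mean levels were 54.9 CPM per kilobase for Cxcr5, 52.2 for Il21r, 34.8 for Icosl and 19.1 for Maf. They were 5.29 for Cd40lg, 3.53 for Il21, 2.56 for Icos, 1.66 for Sh2d1a, 0.911 for Il4 and 0.255 for Il6. The SDs of Cxcr5 and Il21r overlapped, as did those of Il21 and Icos. These genes were measured in the same libraries, so SDs between libraries do not compare them, and their order was not tested. By library, Cxcr5 lay above Il21r in replicates 6 and 8 only, and Il21 above Icos in replicates 5 to 7 only. With 2DG the mean levels were 0.913 ± 0.345 for Il21, 1.18 ± 0.179 for Sh2d1a and 1.14 ± 0.160 for Icos, whose SDs overlapped, so their order was not resolved. In the 6-week spleens they were 1.60 for Il21, 1.24 for Sh2d1a and 1.36 for Icos.

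Because the samples are whole spleen, fewer cells of a type and less RNA per cell cannot be told apart. The pan T cell list, of genes that mark T cells in general, had 0 of 14 genes past the threshold in each comparison. With 2DG at 10 weeks 9 of the 14 were lower by sign, with a list median of -0.10. In that comparison 3 had an unadjusted p under 0.05 (24.5% of all genes). The summed level of the list was 854 to 1119 CPM at 6 weeks, 830 to 1067 CPM in untreated 10-week spleens and 769 to 1071 CPM with 2DG, and none of its markers was near 0. The list does not show the share of Tfh cells among T cells. Relative to the geometric mean of that list, Il21 was at -2.87 ± 0.68 (log2, mean ± SD, n = 4) at 6 weeks, -1.75 ± 0.68 in untreated spleens at 10 weeks and -3.59 ± 0.53 with 2DG. Icos was at -3.64 ± 0.25, -2.74 ± 0.39 and -3.82 ± 0.19, and Sh2d1a at -3.08 ± 0.05, -2.68 ± 0.10 and -3.10 ± 0.12. For Icos and Sh2d1a the untreated 10-week libraries lay above both other groups without overlap on this ratio. Cd40lg went the other way, at -3.10 ± 0.06, -3.13 ± 0.09 and -2.90 ± 0.08, with all 4 treated libraries above all untreated ones. These ratios are descriptions of the same libraries and were not tested. The share of all genes free of overlap was computed for CPM only, not on this ratio, so no background stands beside these members.

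**Figure D3:**
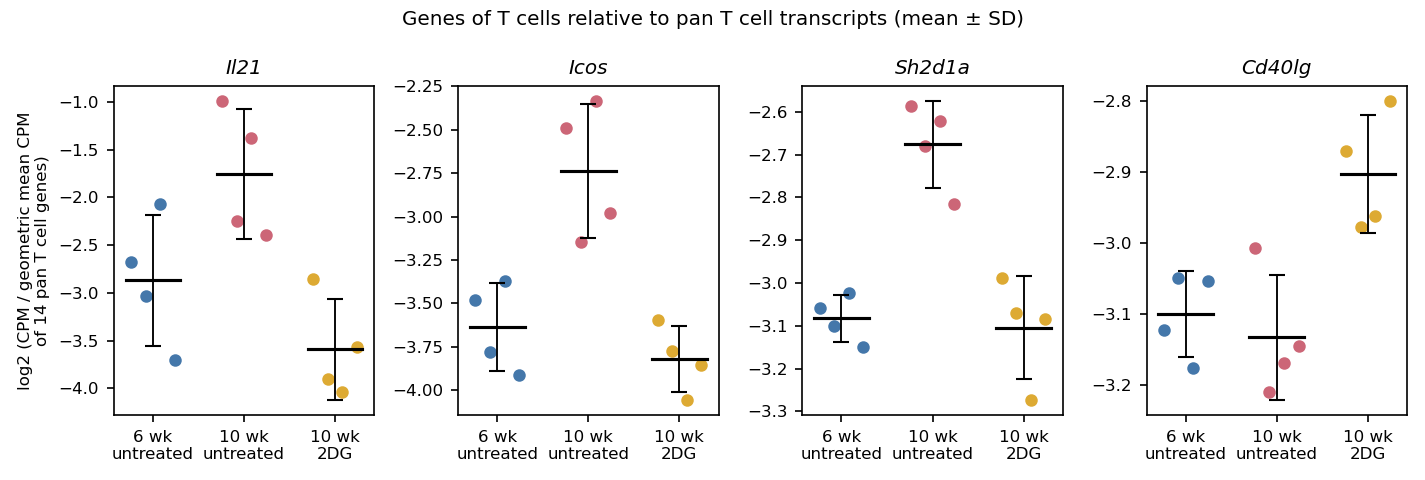
Log2 ratio of each T cell member to the geometric mean of 14 pan T cell genes (vertical axis) in every library by group. For Icos and Sh2d1a the untreated 10-week points lie above the other groups, and for Cd40lg the 2DG points lie above the untreated ones.

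The B cell list and Cxcr5 were both lowest in replicate 6 of the untreated 10-week group, whereas Icosl was lowest in replicate 5. The list summed to 5135 to 6091 CPM at 6 weeks and 5313 to 5867 CPM with 2DG, and to 4648, 3122, 4044 and 6253 CPM in the untreated 10-week libraries, with 0 of 10 genes past the threshold in each comparison. Relative to this list the 2DG difference was 0.03 for Cxcr5 and 0.01 for Icosl (log2), where relative to the T cell list it was 0.41 and 0.39. In 2DG-treated against 6-week spleens, relative to the B cell list, Cxcr5 was higher by 0.22 and Icosl by 0.28, both without overlap. Il21r, relative to the B cell list, was lower with 2DG by a mean log2 difference of -0.47, without overlap, and by -0.09 relative to the T cell list. No share of all genes free of overlap was computed on the B cell ratio either. In CPM, 7.98% of all genes lay higher than at 6 weeks without overlap, and 7.91% lower than in untreated 10-week spleens. The plasma cell list was also lower with 2DG: it summed to 2374 to 4405 CPM at 6 weeks, 4011 to 7285 CPM in untreated 10-week spleens and 1767 to 2718 CPM with 2DG, and 7 of its 8 genes fell with 2DG (Sdc1, Jchain, Xbp1, Mzb1, Derl3, Txndc5 and Creld2), while Tnfrsf17 did not pass (adjusted p = 0.0727). Jchain lost its call in 4 of the 12 fits that left out a library, and 5.26% of all genes fell with 2DG. The part of B cell and plasma cell content in the member results was not tested.

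**Figure D4:**
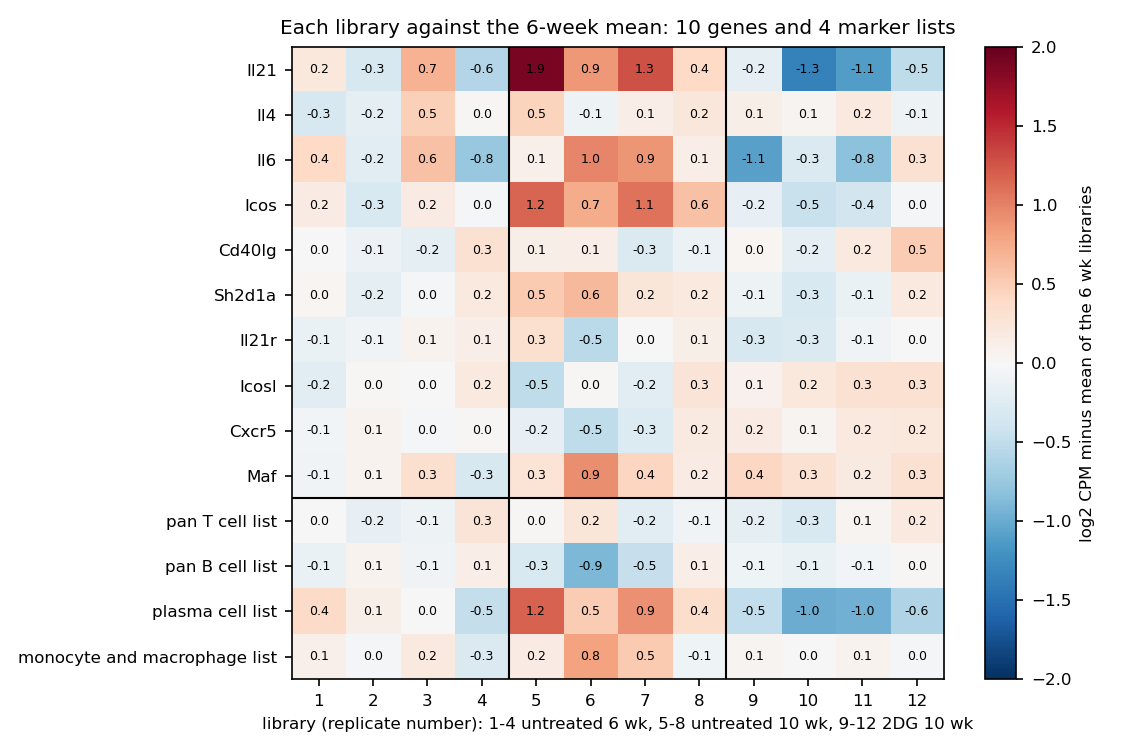
Deviation of each member and of 4 marker lists in every library (columns) from the mean of the 6-week libraries (log2 CPM, printed in each cell and by colour). Il21 is at its highest in replicate 5 of the untreated 10-week group and Cxcr5 at its lowest in replicate 6.

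Genes around the same axis were read in 7 lists of 72 genes. With 2DG at 10 weeks 18 of 66 tested fell and 0 rose, where 5.26% and 2.16% of all genes did. In the same comparison 34 had an unadjusted p under 0.05 (24.5% of all genes), and the median log2 difference was -0.18 against 0.0096 over all genes. The lists mix genes of Tfh cells with genes that oppose them or mark other cells, such as Prdm1, Il2ra, Ifng and Il10. The 18 genes are therefore not a count of Tfh genes. The lists were chosen with earlier results of these data known. With age 0 of 66 passed in edgeR, 22 had an unadjusted p under 0.05 (17.1% of all genes) and DESeq2 called 10 (3.76%). In 2DG-treated against 6-week spleens 0 of 66 passed, 16 had an unadjusted p under 0.05 (16.9%) and DESeq2 called 7 (5.64%). Of the 18 genes, 12 were called in every fit that left out a library and 14 when the 6-week libraries were left out of the fit.

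Among the Tfh transcription factors 3 of 11 fell with 2DG (list median -0.26). Irf4, which controls both helper T cell and plasma cell fate, was 164 ± 11.9 CPM with 2DG against 318 ± 42.1 (log2 -0.96, SE 0.10, edgeR adjusted p = 0.00176). Prdm1, the antagonist of the Tfh factor BCL6 and a driver of plasma cells, was 22.5 ± 5.02 against 62.3 ± 8.99 CPM (-1.47, adjusted p = 0.00176). Batf, which helps to turn on Bcl6 and Maf, was 17.3 ± 2.70 against 28.5 ± 6.63 CPM (-0.72, adjusted p = 0.0235) and lost its call without untreated replicate 5 or 2DG replicate 10 or 11, with values up to 0.0824. Bcl6 itself, the defining Tfh factor and a gene of germinal centre B cells too, was 115 ± 11.8, 92.8 ± 26.8 and 98.0 ± 5.43 CPM in the 3 groups and was not called. By sign 5 of the 11 were higher with 2DG and 6 lower. The 5, none of them called, were Lef1 (log2 0.55), Id3 (0.53), Klf2 (0.24), Bcl6 (0.08) and Tcf7 (0.03). Irf4 had the smallest p of the list with age as well (234 ± 28.4 CPM at 6 weeks, log2 0.45, adjusted p = 0.0952) and against 6 weeks (-0.51, adjusted p = 0.0746).

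Of 15 Tfh surface receptors 4 fell with 2DG (list median -0.24). Counted by sign, 5 were higher, none of them called, and 10 lower. Tigit, an inhibitory receptor of activated T and NK cells, was 6.81 ± 1.63 against 26.7 ± 11.1 CPM (log2 -1.97, SE 0.30, adjusted p = 0.00372). Tnfrsf4, the costimulatory receptor OX40, was 8.84 ± 1.86 against 17.0 ± 4.34 CPM (-0.94, adjusted p = 0.0113), and its ligand Tnfsf4 on antigen-presenting cells fell from 1.43 ± 0.480 to 0.357 ± 0.160 CPM (-2.0, SE 0.42, adjusted p = 0.0144), from 3 to 50 counts, with 0.0501 without 2DG replicate 11. Il2ra, a receptor of activated and regulatory T cells, and the inhibitory receptor Ctla4 differed by -0.62 and -1.09 (adjusted p = 0.0126 and 0.0135), and each lost its call without 2DG replicate 10 or 11 (up to 0.0503 and 0.0542). Pdcd1, which encodes PD-1 and is high on Tfh cells, was 15.9 ± 3.28, 28.2 ± 10.5 and 14.9 ± 4.81 CPM, with no overlap of the 10-week groups and an adjusted p of 0.067. Ctla4 with age (0.96, adjusted p = 0.0972) and Il2ra against 6 weeks (-0.61, adjusted p = 0.0746) had the smallest p-values of this list.

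The list of SLAM family receptors, several of which signal through SAP, and of their signalling partners gave 2 of 9 called lower with 2DG (list median -0.20). Of the 9, 1 was higher by sign and 8 lower. Slamf7, also a surface protein of plasma cells, was 63.3 ± 7.25 against 103 ± 16.6 CPM (log2 -0.71, SE 0.11, adjusted p = 0.00384). Cd48, which encodes a membrane-anchored ligand of CD2 and of the SLAM receptor CD244, was 109 ± 7.49 against 126 ± 6.23 CPM (-0.21), with an adjusted p of 0.049969 that lost the call in 10 of 12 fits that left out a library. The genes with the smallest p otherwise were Ly9 with age (-0.21, adjusted p = 0.195) and Slamf7 against 6 weeks (-0.57, adjusted p = 0.0746).

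The receptor chains that pair with IL-21R or bind IL-4 and IL-6 gave 0 of 5 past the threshold in every comparison, 0 with an unadjusted p under 0.05, and a median of 0.03 with 2DG. Over all genes 17.1% with age, 24.5% with 2DG and 16.9% against 6 weeks had an unadjusted p under 0.05. With so few genes, 0 of 5 was not told apart from these shares. Il4ra had the smallest p with 2DG (166 against 186 CPM, adjusted p = 0.312) and against 6 weeks (-0.16, adjusted p = 0.396), and Il13ra1 with age (0.18, adjusted p = 0.491). Downstream of them, 5 of 12 JAK, STAT and SOCS genes fell with 2DG (list median -0.15). By sign 4 of the 12 were higher, none of them called, and 8 lower. Libraries did not overlap for 2 genes higher and 5 lower (4.48% and 7.91% of all genes). Stat3, the main signal carrier of IL-21 and IL-6, was 215 ± 11.3 against 303 ± 32.5 CPM (log2 -0.50, SE 0.07, adjusted p = 0.00281). Its feedback inhibitor Socs3 was 27.1 ± 2.59 against 94.4 ± 41.3 CPM (-1.80, SE 0.29, adjusted p = 0.00602). Jak3, the kinase of the common gamma chain, was 86.7 ± 9.88 against 127 ± 16.8 CPM (-0.55, adjusted p = 0.00981). Socs1, a feedback inhibitor too, was 6.11 ± 0.486 against 12.0 ± 4.67 CPM (-0.97, adjusted p = 0.0326) and lost its call in 5 of the fits that left out a library (up to 0.106). Socs3 had the smallest p with age (38.2 ± 6.11 CPM at 6 weeks, log2 1.30, adjusted p = 0.0947) and Stat3 against 6 weeks (-0.20, adjusted p = 0.190).

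On the antigen-presenting side 2 of 8 genes fell with 2DG (list median -0.11): Tnfsf4, given above, and Cd274, the PD-1 ligand PD-L1, at 67.7 ± 2.05 against 99.9 ± 14.3 CPM (log2 -0.56, adjusted p = 0.00456). In this list 3 of the 8 were higher by sign and 5 lower. Tnfsf4 had the smallest p with age (1.56, adjusted p = 0.112) and Tnfrsf14 against 6 weeks (0.47, adjusted p = 0.102). The other T helper cytokines and factors gave 2 of 6 called lower (list median -0.65), with 1 higher by sign and 5 lower. Il10, an inhibitory cytokine of T, B and myeloid cells, was 0.625 ± 0.231 against 5.36 ± 2.01 CPM (-3.09, SE 0.54, adjusted p = 0.00713), and Ifng, the Th1 cytokine, was 0.481 ± 0.306 against 2.29 ± 1.37 CPM (-2.22, SE 0.45, adjusted p = 0.0118). Ifng was not called when the 6-week libraries were left out of the fit (adjusted p = 0.0545). Ifng with age (1.37, adjusted p = 0.147) and Il10 against 6 weeks (-2.03, adjusted p = 0.111) had the smallest p-values. Ascl2, Sh2d1b2, Il2, Il17a, Il13 and Il5 did not pass the filter and were not tested.

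**Figure D5:**
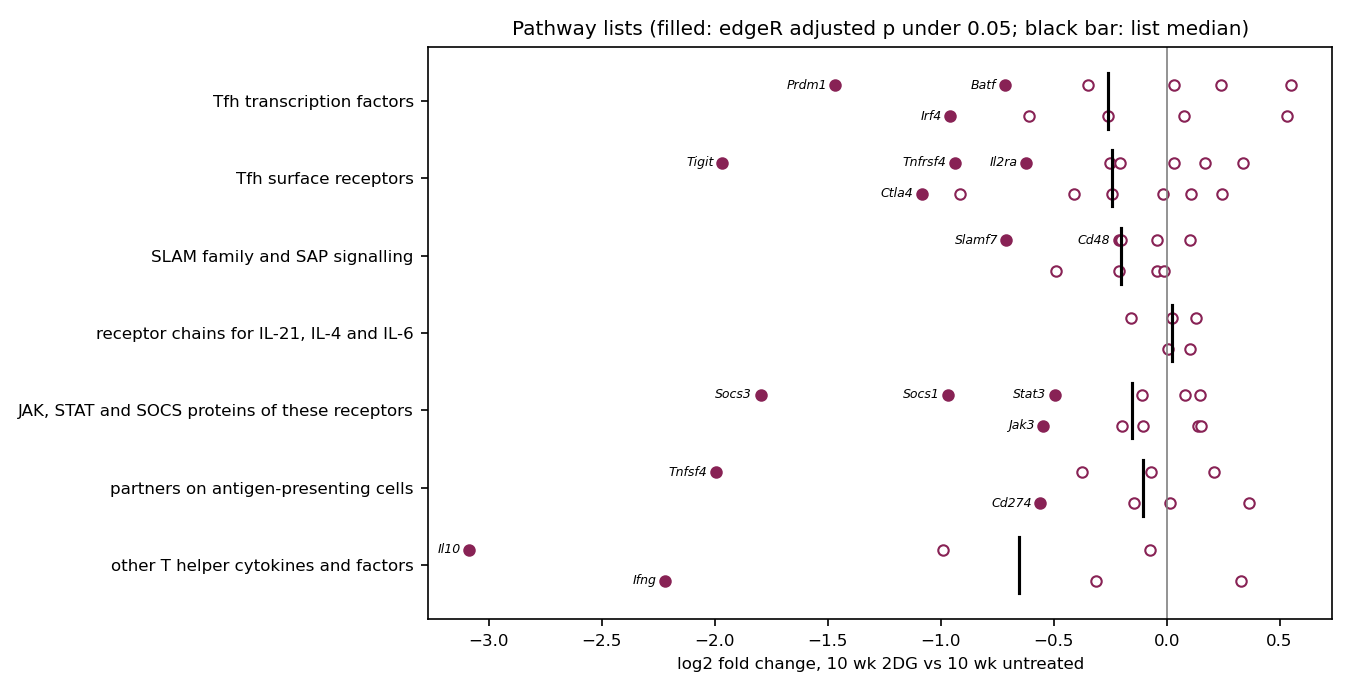
Fitted log2 fold change of the tested genes of the 7 lists, 1 not drawn, for 2DG against untreated spleens at 10 weeks (horizontal axis), with filled points for an edgeR adjusted p under 0.05 and a bar at each list's median. The filled points all lie left of 0, from Il10 at -3.09 to Cd48 at -0.21.

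The genes whose pattern over the 12 libraries was most like that of Il21 were found by the root mean square difference of standardised log2 CPM over 12354 candidates, whose median difference was 1.41. They were Eif1a (0.149), Gbp3 (0.195), Lag3 (0.205), Gbp5 (0.218) and Gnb4 (0.227). For Icos they were Gbp5 (0.235), Sel1l (0.255), Etv5 (0.266), Arf4 (0.279) and Sec24d (0.286). Gbp5 was on both lists, and Il21 and Icos stood at 0.353 from each other. These libraries share age and treatment groups, so likeness includes the group differences.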

How the data were processed

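Poly(A)-selected libraries were made from spleen total RNA with a TruSeq RNA v2 kit, per the labels' protocols. The authors deposited whole-number counts per gene. Bowtie2 2.2.0, RSEM 1.2.12 and GRCm38 appear without their roles, per the submitters' processing notes. The splitting of reads between similar genes is not given in the sources. Of 53715 identifiers, 51464 matched GENCODE M21 with version and 2156 without it, and 95 did not match (at most 0.0158% of a library). Within-group pairs differed by more than sampling noise (chi-square per gene 10.5 to 85.2), so no pair was taken for 1 library deposited again.

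Counts were tested with edgeR 4.0.16 in R 4.3.3: TMM, filterByExpr, robust quasi-likelihood fits over all 12 libraries, Benjamini-Hochberg over 18542 genes, threshold 0.05. Each SE is the fitted change over the root of its F statistic. CPM per kilobase used union exon length. Ratios to T cell genes used a pseudocount of 0.1 CPM. Alternatives were DESeq2 1.42.0, limma 3.58.1 voom with quality weights, other scalings and filters, a 1.5-fold test, fits of the compared groups, and left-out libraries. The fit was tested on simulated independent counts. For 2DG at 10 weeks it recovered 27 of 67 changes of 1.5-fold, 55 of 67 of 2-fold and 65 of 66 of 4-fold, with 3 false calls. The simulation gave all groups the same spread per gene, whereas the untreated 10-week libraries spread more than the 2DG libraries (0.241 against 0.114). Changed genes were drawn only above a minimum level, which Il6 did not reach. These rates may therefore not hold for the real comparison. Motif searches covered both strands.

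The 10 members, the 7 pathway lists and the 10 cell type lists were chosen with earlier results of these data known. Named genes were the members and, per pathway list and comparison, the called genes with the lowest adjusted p, up to 4, or else the gene with the smallest p. Likeness named 5 genes each, among those averaging 1 or more on the log2 CPM scale. Bcl6, Lef1, Id3, Klf2, Tcf7, Pdcd1, Socs1, Tenm1, Bcl9l and Cd8a were named outside this rule, after their values were seen. A gene that the rule names is not reported here.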

Additional observations from a re-analysis of the deposited data

How the results depend on the processing

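No paired analysis was possible because the replicate numbers run on from 1 to 12 and the groups share none. Over members and alternatives 590 values kept their direction and side of the threshold, 18 passed it newly and 4 fell short. Another 11 changed sign, none of them past the threshold in either fit, each with a library left out. Over those fits Il21r with age ran from -0.11 to 0.16, Icosl with age from -0.22 to 0.026 (above 0 without replicate 5), Cd40lg with age from -0.097 to 0.072 (above 0 without replicate 4 or 7), Maf with 2DG at 10 weeks from -0.28 to 0.0046 (above 0 without replicate 6) and Il4 against 6 weeks from -0.070 to 0.26. With 2DG at 10 weeks the count of members called was 0 against a fold of 1.5 and 4 without untreated replicates 6 and 8 (added after seeing the data). It ran from 1 to 5 with each library left out. With age it was 1 with no filter (Icos), 2 with DESeq2, 2 without replicates 6 and 8 and 0 to 2 with each library left out. In 2DG-treated against 6-week spleens it stayed at 0 under every alternative run. Called as well under some alternatives for 2DG at 10 weeks was Sh2d1a, with median-of-ratios scaling (adjusted p = 0.0485), with at least 1 CPM in 4 libraries (0.0470), with DESeq2 and without untreated replicate 7 (0.0432) or 8 (0.0268) or 2DG replicate 12 (0.0318). Cxcr5 was also called with voom (0.0487). All counts of left-out fits include those without a library of the group not compared, which hardly move a fold change.

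Over all genes the age count was 102 with no filter, 0 against a fold of 1.5, 0 with only the compared groups, 682 with DESeq2, 2303 without replicates 6 and 8, and 0 to 1563 with each library left out, highest without replicate 8. The 2DG count was 1376 and became 83 against a fold of 1.5, 581 with only the compared groups, 2304 with DESeq2, 3193 without replicates 6 and 8, and 514 to 2209 with each library left out. The count against 6 weeks was 24 and became 98, 0, 1367, 902, 758 and 1 to 354 in those settings (no filter for the first), and 1644 with voom. The cause of these shifts was not tested. With Cd3e alone in place of the T cell list, the log2 ratios were 0.31 with age and -0.30 with 2DG for Sh2d1a, and -0.13 and 0.36 for Cd40lg. With the B cell list, added after seeing the data, they were 0.36 and -0.47 for Il21r, 0.27 and 0.0092 for Icosl, and 0.19 and 0.026 for Cxcr5. Depth limits Il6 and Il4, at 3 to 19 and 16 to 29 counts per library.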

Other observations

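The other cell type lists were read for 2DG at 10 weeks against untreated spleens. In the dendritic cell list 3 of 8 genes were called higher in edgeR (Zbtb46, Clec9a and Cd209a), where 2.16% of all genes were, and none lower. The list was split by sign, with 5 higher and 3 lower, and 7 of the 8 had an unadjusted p under 0.05 (24.5% of all genes). Zbtb46 lost its call in 8 of the 12 fits that left out a library, Cd209a in 2 and Clec9a in 1. In the NK and innate lymphoid list 2 of 6 tested genes fell, where 5.26% of all genes did, and Klra8 did not pass the filter. Of the 6, 4 were lower by sign and 2 higher. The 2 genes were Klrk1 and Eomes, both of which activated T cells also express. Klrk1 (edgeR adjusted p = 0.0466) lost its call in 11 of the 12 fits that left out a library. In the stroma and endothelium list 1 of 10 rose (Des), with 5 higher by sign and 5 lower. The neutrophil list had 0 of 8 genes past the threshold and 0 at an unadjusted p under 0.05, where 7.42% and 24.5% of all genes were. The erythroid list had 0 of 8 past the threshold (7.42% of all genes) and 5 at an unadjusted p under 0.05 (24.5%). Its median log2 difference was 1.04 against 0.0096 over all genes, and all 8 were higher by sign. Its summed level was 2093 to 15591 CPM in untreated and 9633 to 20196 CPM in treated spleens. The part of these lists in the member levels was not tested.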
